A study of Homo sapiens with 2 samples.

Results

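The alcohol dehydrogenase genes ADH5, ADH4, ADH6, ADH1A, ADH1B, ADH1C and ADH7 lie next to each other on human chromosome 4, and the data give the places in this cluster where LSD2 chromatin immunoprecipitation (ChIP) exceeded input DNA. The cluster was taken as chr4:99992132-100356525 (hg19), a stretch of 364.4 kb with ADH5 at its lower and ADH7 at its upper boundary. Its members were the deposited intervals with their midpoint in this stretch, identical lines being counted once. They numbered 59, of 370863 intervals in the whole list and 24429 on chromosome 4.

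LSD2, the product of KDM1B, is a flavin-dependent enzyme that removes methyl groups from lysine of histone H3. The cells were HepG2, an established human line from a liver tumour with an abnormal chromosome number, grown in high-glucose medium (25 mM) with serum and no further treatment. There were 2 libraries, 1 from chromatin precipitated with a rabbit polyclonal antibody against recombinant LSD2 and 1 input without antibody. With 1 library each there is no replicate error, so the values below are descriptions, their intervals are 95% intervals that cover counting only and treat neighbouring peaks as independent, and no difference between libraries or regions was tested. No height, fold or p-value per interval is given in the list, and the depth of the libraries is unknown.

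Alcohol dehydrogenases oxidise alcohols to aldehydes with NAD as the acceptor, and the liver is the main site of ethanol oxidation. ADH1A, ADH1B and ADH1C encode the alpha, beta and gamma subunits of the class I enzymes, which carry most hepatic ethanol oxidation. ADH4 encodes the class II enzyme, found mainly in liver, and ADH6 a class V enzyme. ADH5 encodes the class III enzyme, expressed in most tissues, which oxidises the glutathione adduct of formaldehyde and reduces S-nitrosoglutathione. ADH7 encodes the class IV enzyme of stomach and other epithelia, which acts on retinol as well as ethanol. In the RefSeq tables all 7 genes are on the minus strand and follow in the order given above, so that the end of ADH5 faces the lower boundary and the start of ADH7 the upper one.

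Sequences upstream of the members' starts are shown because they set the genes apart and show how alike the class I copies are. The sequences come from RefSeq (GRCh38.p14, minus strand), which held all 7 members, and each is the 250 bases before the start, 5′ to 3′. Their coordinates are on another build than the LSD2 intervals and cannot be read against them. The first 3 are the class I genes, at chr4:99290986-99291235 (ADH1A), chr4:99321402-99321651 (ADH1B) and chr4:99352747-99352996 (ADH1C). Capitals mark, from left to right, GGGTGTGG, CACGTG where it occurs, and ATAAATA.
ADH1A: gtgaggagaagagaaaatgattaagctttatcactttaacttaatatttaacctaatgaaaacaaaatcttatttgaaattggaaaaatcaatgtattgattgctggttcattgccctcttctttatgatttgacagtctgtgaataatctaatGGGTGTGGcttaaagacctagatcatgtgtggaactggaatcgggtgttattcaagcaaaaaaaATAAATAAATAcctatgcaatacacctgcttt
ADH1B: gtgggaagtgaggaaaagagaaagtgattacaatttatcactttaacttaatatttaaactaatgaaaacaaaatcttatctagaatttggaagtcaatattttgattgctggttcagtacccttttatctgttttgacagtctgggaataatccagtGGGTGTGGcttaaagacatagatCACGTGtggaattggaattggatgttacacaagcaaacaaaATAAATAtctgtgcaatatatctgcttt
ADH1C: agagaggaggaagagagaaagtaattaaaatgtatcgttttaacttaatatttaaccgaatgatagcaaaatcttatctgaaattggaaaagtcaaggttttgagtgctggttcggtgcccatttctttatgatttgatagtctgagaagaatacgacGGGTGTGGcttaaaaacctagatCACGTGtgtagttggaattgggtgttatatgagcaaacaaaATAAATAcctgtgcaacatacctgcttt
In ADH5, at chr4:99088789-99089038, the capitals mark every CG.
ADH5: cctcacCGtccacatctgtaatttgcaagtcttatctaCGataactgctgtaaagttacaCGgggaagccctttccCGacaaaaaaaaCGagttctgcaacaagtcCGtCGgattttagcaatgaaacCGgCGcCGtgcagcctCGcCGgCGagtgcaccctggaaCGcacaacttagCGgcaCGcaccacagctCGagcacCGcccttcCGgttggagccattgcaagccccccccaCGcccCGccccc
In ADH7, at chr4:99435343-99435592, the outer of 2 start regions listed for this gene, the capitals mark TATAAA read on the opposite strand.
ADH7: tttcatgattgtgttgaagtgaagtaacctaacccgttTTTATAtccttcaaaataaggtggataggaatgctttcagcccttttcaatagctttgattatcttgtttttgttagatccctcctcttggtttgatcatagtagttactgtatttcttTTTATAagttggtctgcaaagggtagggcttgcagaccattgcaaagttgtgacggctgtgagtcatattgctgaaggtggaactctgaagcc

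The class I start regions were close copies of each other, and ADH5 differed from the other members in base composition. Upstream of the starts, ADH1A and ADH1B were identical at 82.2% of alignment columns, gap columns included, and ADH1A with ADH1C and ADH1B with ADH1C at 81.5% each. The other 18 pairs among the 7 genes had 44.9% to 55.1%, with a median of 49.1%. The level that unrelated sequences reach under this alignment was not measured. ADH5 had 58.0% G and C and 21 CG pairs, and the medians over 35116 start regions of all genes were 58.0% and 11 pairs. At least as much G and C as ADH5 was held by 50.9% of these regions, and at least as many CG pairs by 30.2%. The other members lay low for G and C. From 89.2% (ADH7) to 97.6% (ADH1A) of all start regions had at least as much. The class I genes had 31.6% (ADH1A), 32.4% (ADH1B) and 35.6% (ADH1C) G and C, with 1, 1 and 6 CG pairs. ADH4 and ADH6 had 1 CG pair each and ADH7 had 2.

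The motifs were chosen after the sequences had been seen and were searched on both strands. GGGTGTGG, a box of the CACCC type, was found in ADH1A, ADH1B and ADH1C and in 2.97% of all start regions. CACGTG, the palindromic core of the E-box, was found in ADH1B and ADH1C, in both at 69 bases before the start, and in 6.34% of all start regions. These letters do not occur in the 250 bases shown for ADH1A. ATAAATA, which resembles a TATA box, began 28 bases before the start in ADH1B and ADH1C. In ADH1A it occurred at both 32 and 28 bases in overlapping copies. ADH4 carried it on the opposite strand, and 4.60% of all start regions held it. TATAAA, the TATA box core, was found in ADH4 and ADH7, each time on the opposite strand, and in 10.7% of all start regions. CCAAT was found in ADH4, ADH1A, ADH1B and ADH1C and in 11240 of the 35116 start regions. These matches describe the letters alone.

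With each interval counted once, LSD2 intervals were spread over the cluster at about the density of the sequence on either side, a reading that depended on how repeated lines were counted. The 59 intervals gave 162 per Mb (95% exact Poisson interval 123 to 209). The 500 kb next to ADH5 held 79 intervals, or 158 per Mb (125 to 197), and the 500 kb next to ADH7 held 83, or 166 per Mb (132 to 206). The density of the cluster was 0.999 times that of both flanks together (95% exact conditional interval 0.73 to 1.35). Set against each flank alone it was 1.02 times (0.72 to 1.45) on the ADH5 side and 0.98 times (0.69 to 1.38) on the ADH7 side. With only the intervals listed once it was 0.67 times that of both flanks (0.45 to 0.97), and with every deposited line counted 1.29 times (0.98 to 1.68).

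The rest of chromosome 4, without the cluster and its flanks, held 24208 intervals, or 130 per Mb (128 to 131). The cluster's density was 1.25 times this value (0.95 to 1.61), with an interval that takes in a ratio of 1. With only the intervals listed once the ratio was 0.81 (0.57 to 1.13), in the opposite direction, and with every deposited line counted it was 1.64 (1.30 to 2.03). Among 512 other windows of 364.4 kb on chromosome 4, 101 held at least 59 intervals, which is 19.7%. The windows ran from 10 to 100 intervals with a median of 45, so the cluster lay in the upper part of a broad range. The 3 windows below the cluster held 70, 37 and 51 intervals, in order of distance, and the 3 above it held 55, 60 and 39. These nearby windows of the same length thus ran from 37 to 70 intervals, a range that takes in the 59 of the cluster. Copy number and mappability were not measured here, and their part in the ratio to the rest of the chromosome was not tested.

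**Figure D1:**
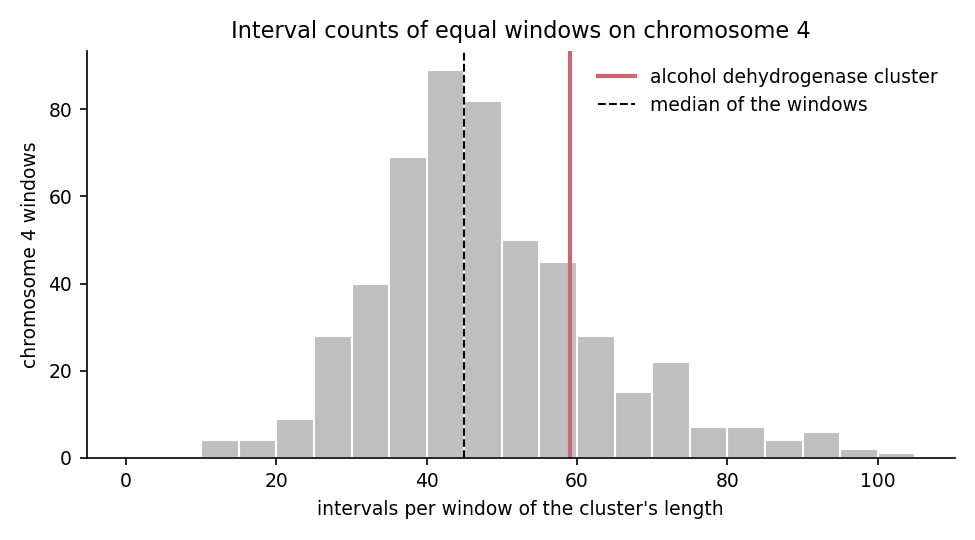
Histogram of the number of LSD2 intervals (x axis) in 512 windows of 364.4 kb on chromosome 4 (y axis, number of windows), with the alcohol dehydrogenase cluster as a red line and the median window as a dashed line. The cluster, at 59 intervals, lies above the median of 45 and within the range of 10 to 100.

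Of the bases in the cluster, 3.45% lay inside an interval, compared with 3.62% and 3.75% in the flanks on the ADH5 and ADH7 sides and 2.92% in the rest of chromosome 4. Most intervals of the cluster were narrow. Their median width was 164 bp (95% interval 153 to 208), with a range of 138 to 480 bp. The medians were 169 bp (160 to 218) and 180 bp (162 to 216) in the flanks and 169 bp (168 to 170) in the rest of the chromosome. Of the 59, 31 were under 170 bp, which is 52.5%, against 50.2% of the rest, and 4 reached 400 bp, or 6.78% against 5.90%.

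The widest interval of the cluster, 480 bp at chr4:100287522-100288001, lay 295.6 kb from the lower end, in the part of the cluster nearer to ADH7. Intervals at least that wide made up 2.54% of those on chromosome 4. The next widest were a pair towards the ADH5 end of the cluster, of 457 bp at chr4:100002339-100002795 and 445 bp at chr4:100002866-100003310. Only 70 bp separate them, the shortest gap in the cluster, and they lie about 10 to 11 kb above the lower end. The remaining intervals among the 5 widest were 409 bp at chr4:100210170-100210578 and 361 bp at chr4:100085459-100085819. The 5 widest therefore lie in 4 separate places along the cluster.

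Only the outer ends of the cluster are tied to genes in hg19 here, through ADH5 and ADH7, and this rests on the definition of the cluster alone, with no hg19 annotation used. At the lower end, on the side of ADH5, an interval of 387 bp at chr4:99991622-99992008 lay 124 bp outside the cluster, and the first interval inside it was 150 bp wide and 1.03 kb away. At the upper end, on the side of ADH7, for which RefSeq lists 2 start regions, the last interval of the cluster was 257 bp wide, at chr4:100354508-100354764, 1.76 kb before the end. The next one beyond ADH7, of 146 bp, was 5.86 kb away. Both ends thus lay between intervals, in a gap of 1152 bp at the lower end and of 7617 bp at the upper end. In the rest of chromosome 4 the 66th percentile of gaps was 7569 bp. Positions of ADH4, ADH6, ADH1A, ADH1B and ADH1C on hg19 were not used here, so intervals were not assigned to these genes or to the sequence between them, and the interior is described by position.

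Along the cluster the intervals were unevenly spaced, with 1 dense stretch and several long gaps. Of 20 equal bins of 18.2 kb, 3 held no interval, the median bin held 3 and the fullest, chr4:100192549-100210768, held 11. Among 10290 other windows of this length on chromosome 4, 24 held 11 or more, which is 0.233%, and 12.8% held none. The fullest bin was singled out from 20 after the counts were seen. In that bin 12.2% of the bases lay inside an interval.

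The dense stretch was defined after the positions had been seen, as the longest chain of intervals each within 4 kb of the next. It ran over 15.9 kb at chr4:100195222-100211132. The stretch held 12 of the 59 intervals, or 20.3%, and they covered 15.1% of its bases. These intervals were not wide, with a median of 154.5 bp (range 138 to 409), against 164 bp in the cluster as a whole. Short gaps within it were 79 bp between chr4:100208223-100208430 and chr4:100208510-100208777, and 141 bp between chr4:100205145-100205282 and chr4:100205424-100205717. Chromosome 4 had 49 chains of 12 or more intervals, this stretch included, and the longest held 34. The total was 13166 chains, but this takes in intervals that stand alone, 15 of them in the cluster. A second chain of 7 intervals lay at chr4:100063270-100076255 and covered 9.85% of 13.0 kb.

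**Figure D2:**
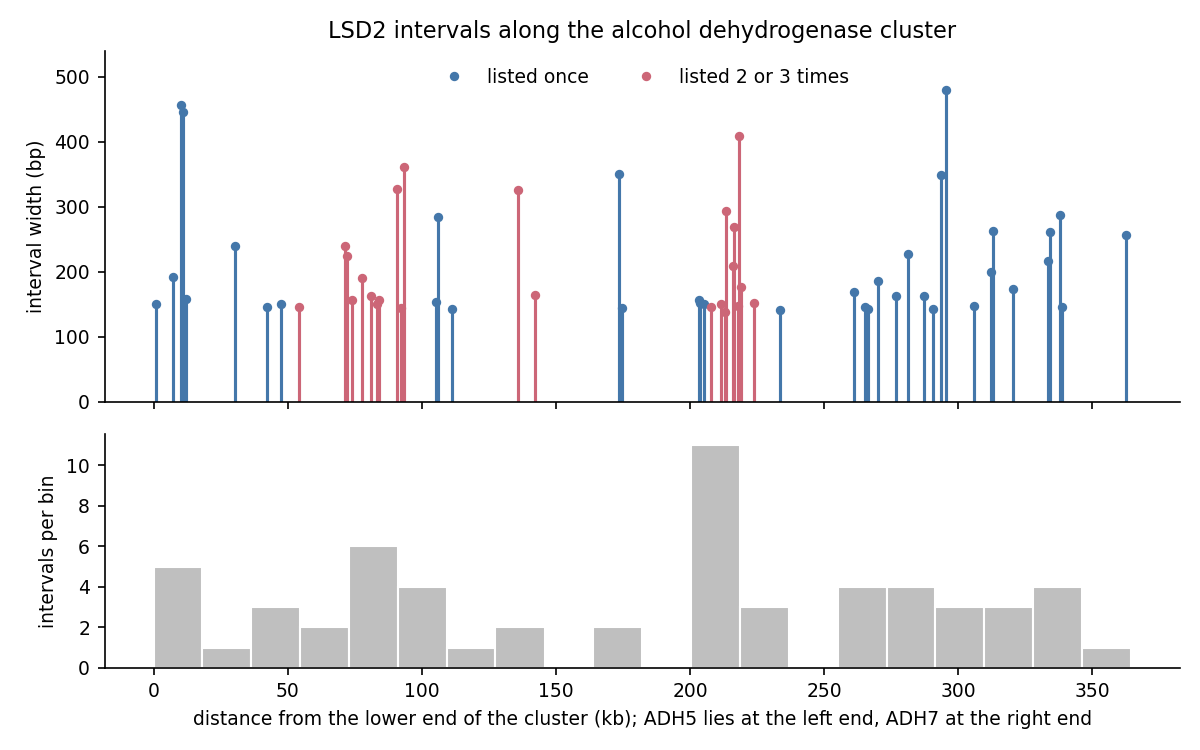
Upper panel: each of the 59 LSD2 intervals of the cluster, with its distance from the lower end of the cluster in kb (x axis) and its width in bp (y axis), in blue where listed once and in red where listed 2 or 3 times. Lower panel: the number of intervals in each of 20 bins of 18.2 kb, of which the fullest held 11 and 3 held none.

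The cluster also held 5 gaps over 20 kb. The longest was 31.1 kb, at chr4:100134597-100165689, followed by 28.5 kb at chr4:100166763-100195221, which ends at the dense stretch, and 27.6 kb at chr4:100225724-100253371. Only 2 intervals separate the first 2 of these gaps. Gaps of at least 31.1 kb made up 2.34% of the gaps on chromosome 4. The middle of the cluster therefore held both its longest gaps and its densest stretch, whereas 3 equal parts of 121.5 kb held 22, 18 and 19 intervals from the ADH5 end to the ADH7 end.

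Gaps within the cluster had a median of 3288 bp (quartiles 1018 and 6308 bp). The medians were 3790 bp and 4220 bp in the flanks on the ADH5 and ADH7 sides and 4577 bp in the rest of chromosome 4. Gaps under 1 kb were 14 of 58, or 24.1%, against 15.4% and 11.0% in the flanks and 15.9% in the rest. At the other end, 5 of 58 gaps, or 8.62%, reached 20 kb, against 3.85% and 2.44% in the flanks and 7.95% in the rest. Short and long gaps thus both made up a larger share in the cluster than in either flank, on 14 and 5 gaps.

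**Figure D3:**
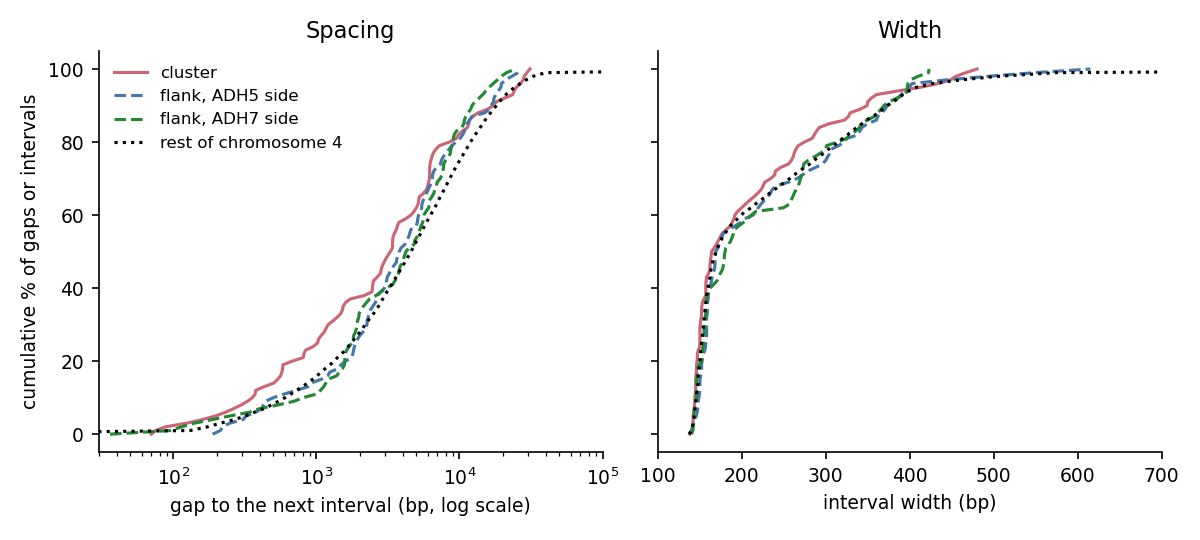
Cumulative share (y axis, %) of gaps to the next interval (left, bp, log scale) and of interval widths (right, bp) for the cluster, its 500 kb flanks and the rest of chromosome 4, which runs beyond the plotted range. The gap curve of the cluster lies to the left of the others in its lower part, with a median of 3288 bp, while the width curves run close together up to their medians of 164 to 180 bp.

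Repeated lines made up a larger share of the intervals in the cluster than in its surroundings. Of its 59 intervals, 23 appeared on more than 1 line of the deposited list, which is 39.0% (95% exact binomial interval 26.5% to 52.6%). In the flanks this was true of 7 of 79 on the ADH5 side, or 8.86% (3.64% to 17.4%), and of 7 of 83 on the ADH7 side, or 8.43% (3.46% to 16.6%). In the rest of chromosome 4 it was 1566 of 24208 intervals, or 6.47%, and over all chromosomes 10.1%. Of the 512 other windows of the cluster's length, 5 held 23 or more such intervals, which is 0.977%, and the median window held 1. The binomial intervals treat neighbours as independent, but across the genome 69.0% of intervals that followed a repeated one were themselves repeated.

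The repeated intervals of the cluster formed 3 unbroken blocks. The first block held 11 successive intervals over 39.5 kb at chr4:100046299-100085819, of which 10 were listed 2 times and 1 was listed 3 times. The latter, chr4:100082837-100083164, was 328 bp wide. The second block held 2 intervals at chr4:100127924-100134596. The third held 10 intervals over 16.1 kb at chr4:100200053-100216189 and took in 9 of the 12 intervals of the dense stretch. The remaining 3 of the dense stretch, at its lower end, were listed once, as were the first 8 intervals from the ADH5 end and the last 20 up to the ADH7 end.

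On chromosome 4 as a whole, 28 of 568 such blocks held 10 or more intervals, and the median block held 2. The repeated intervals of the cluster had a median of 164 bp (range 138 to 409) and the others 166 bp (range 141 to 480). Neither the labels nor the file header gives the reason for repeated lines.

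**Figure D4:**
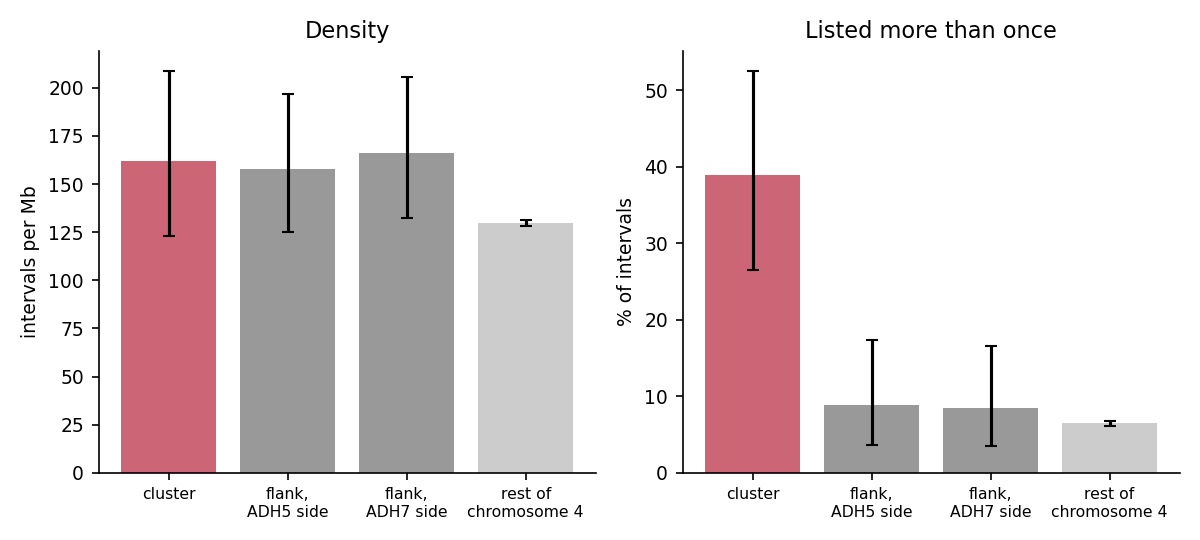
Left: LSD2 intervals per Mb (y axis) in the cluster, its flanks and the rest of chromosome 4, with 95% exact Poisson intervals as error bars. Right: the share of intervals listed more than once (y axis, %) with 95% exact binomial intervals. Densities of the cluster and the flanks lie between 158 and 166 per Mb, while the repeated share is 39.0% in the cluster and 8.86% and 8.43% in the flanks.

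The density ratios given above therefore moved with the treatment of repeated lines. The cluster held 83 lines for its 59 intervals, and counting lines raised its density more than that of its surroundings. Leaving out the repeated intervals removed 23 of the 59. Of the 4 ratios under these 2 treatments, 1.64 to the rest of the chromosome with lines counted and 0.67 to the flanks with intervals listed once had counting intervals without 1, whereas 1.29 and 0.81 did not. None of the 4 counting intervals takes in the spread between stretches of the chromosome, so none decides whether a ratio differs from 1. With each interval counted once, the 512 other windows had a mean of 47.4 intervals and a standard deviation of 15.1, more than counting alone would give. Repeated lines of 1 interval are also not independent, which makes the intervals on the ratios with lines counted narrower still than they should be.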

How the data were processed

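The deposited file holds start and end positions of intervals in bases of hg19, with no score. Per the file headers, the authors trimmed reads, removed duplicates and ran MACS on the LSD2 library against input (read and fragment length 120 bp, effective genome size 2700 Mb, p-value cutoff 1e-05, enrichment factor 32). BWA and hg19 are named in the submitters' processing notes, without versions. The enrichment factor is given as a setting only and was not read as a fold that each listed interval reached. A p-value cutoff lists more intervals where more reads fall, so counts move with depth and DNA amount, neither of which is known here.

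Intervals were assigned by midpoint, with starts counted from 1, and groups came from the source names. The rest of chromosome 4 was the sequence between its outermost intervals, without the cluster, its flanks and 1 interval-free stretch over 500 kb, which windows also avoided. Counting was checked on simulated data. Python 3.11.15, scipy 1.17.1 and Biopython 1.88 (global alignment) were used. The text names the 7 genes, the 5 widest intervals, the 3 shortest and longest gaps, and the most often listed interval. The genes, the chain, the repeated-line blocks and the motifs were chosen with earlier results of these data known. Gene bodies and the planned lists of neighbouring and pathway genes were not placed, since the gene table is on GRCh38.p14 and coordinates were not converted. Alternatives counted lines, overlaps, merged or wide intervals, and other flanks and windows.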

Additional observations from a re-analysis of the deposited data

How the results depend on the processing

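Of 28 alternatives, 5 of them chosen after seeing the data, 22 stayed within the 95% counting interval of the value reported. Not all of these could move. Coverage counts each base once, so it cannot change when every line is counted. Assigning intervals by any overlapping base repeated the reported density, coverage and ratios exactly. Counting every deposited line gave 228 per Mb in the cluster, against 162, and 1.64 times the density of the rest of chromosome 4, against 1.25, since repeated intervals then count more than once. Keeping the wider intervals, those that reach 173 bp, the median width of all intervals, can only lower density and coverage. It gave 76.8 per Mb and a coverage of 2.17%, against 3.45%, while the ratios to the flanks and to the rest were 0.90 and 1.23. Intervals listed once gave 0.67 times the flanks and 0.81 times the rest, since this choice leaves out 23 of the 59. Leaving the closest-spaced stretch out of the cluster, which can only lower the ratios, gave 0.83 and 1.04. Flanks of 250 kb and 1 Mb gave ratios of 0.92 and 1.12. The alternative for gene bodies was not run, since genes were not placed. No paired analysis was possible because there was 1 library of each kind. Depth is unknown, so sequence without an interval cannot be told apart from sequence with too few reads.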
